A study of Mus musculus with 10 samples.

Results

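H3K4me3 and H3K27me3 were read together in a single state, mouse embryonic stem (ES) cells of the line XT67E1 treated for 4 days with all-trans retinoic acid, which the labels write atRA. The members were 2 of the 10 libraries of the series, chosen by their labels: the H3K4me3 library and the H3K27me3 library of XT67E1 labelled 4d-atRA. XT67E1 is given the strain C3H/Pgk*129 in the labels. Growth was in serum and LIF on gelatin, and crosslinked, sheared chromatin was precipitated with a separate antiserum for each mark and sequenced. Each mark was measured in 1 library of 1 line, so there was no replicate check, no test was made and no p-value is given. The other 8 libraries were both marks in undifferentiated cells and 10-day embryoid bodies of XT67E1, and H3K27me3 in those of lines LF2 and E14. They were used for a single purpose, to find bins high in every library.

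H3K4me3 is placed at the start sites of active and poised genes, mostly as narrow peaks at CpG-rich promoters. H3K27me3 is placed by Polycomb repressive complex 2 on silent developmental genes and can spread over long domains, of which the Hox clusters are textbook examples. In ES cells many promoters of developmental regulators carry both marks, a state called bivalent, and retinoic acid is used to drive ES cells out of pluripotency, after which such promoters are known to resolve towards H3K4me3 or H3K27me3. As background, the Hox genes lie on chromosomes 2, 6, 11 and 15 (RefSeq, GRCm38.p6). No annotation of mm9, the build of the deposited positions, was used here, so loci are given by mm9 position, counted from 1, and were matched to no gene. The gene lists planned as a check of the cell state were for the same reason not analysed.

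The H3K4me3 library held 2252395 reads and the H3K27me3 library 8380007. Of these, 2153974 and 8014473 fell on chromosomes 1 to 19, and their midpoints were counted in the same 1236158 bins of 2 kb. A bin held a mean of 1.74 H3K4me3 reads and 6.48 H3K27me3 reads, and the level of a mark is the count divided by that mean. A bin was called marked at 5 times the mean or more for H3K4me3, which took at least 9 reads, and at 3 times the mean or more for H3K27me3, which took at least 20 reads. At these depths a level near the mean rests on a few reads, and levels of single bins carry a wide counting error. Neither mark had a read in 103817 bins (8.4%), which stay in the totals.

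H3K4me3 marked 15074 bins, 1.22% of all autosomal bins, and H3K27me3 marked 45662 bins, 3.69%. Both marks were present in 1942 bins, 0.157% of all bins. A further 13132 bins (1.06%) had H3K4me3 without H3K27me3, 43720 (3.54%) had H3K27me3 without H3K4me3, and 1177364 (95.2%) had neither. Thus 12.9% of the H3K4me3-marked bins also carried H3K27me3 (exact Clopper-Pearson 95% interval 12.4 to 13.4), against 3.69% of all bins. Seen from the other mark, 4.25% of the H3K27me3-marked bins also carried H3K4me3 (4.07 to 4.44), against 1.22% of all bins. The intervals treat bins as independent and cover the sampling of bins only. They leave out the counting error of the reads that place a bin above or below a threshold, and the spread between cultures. In bulk chromatin, reads of both marks in a bin can come from the same nucleosome or from different alleles or cells, and these cannot be told apart.

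The threshold did not separate distinct groups of bins. The 997 bins just inside the H3K4me3 threshold, with 9 reads, carried H3K27me3 in 22.8% of cases, and the 1658 bins just outside it, with 8 reads, in 24.2%. For H3K27me3 there were 5598 bins with 20 reads, of which 2.02% carried H3K4me3, and 6828 bins with 19 reads, of which 1.89% did.

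**Figure D1:**
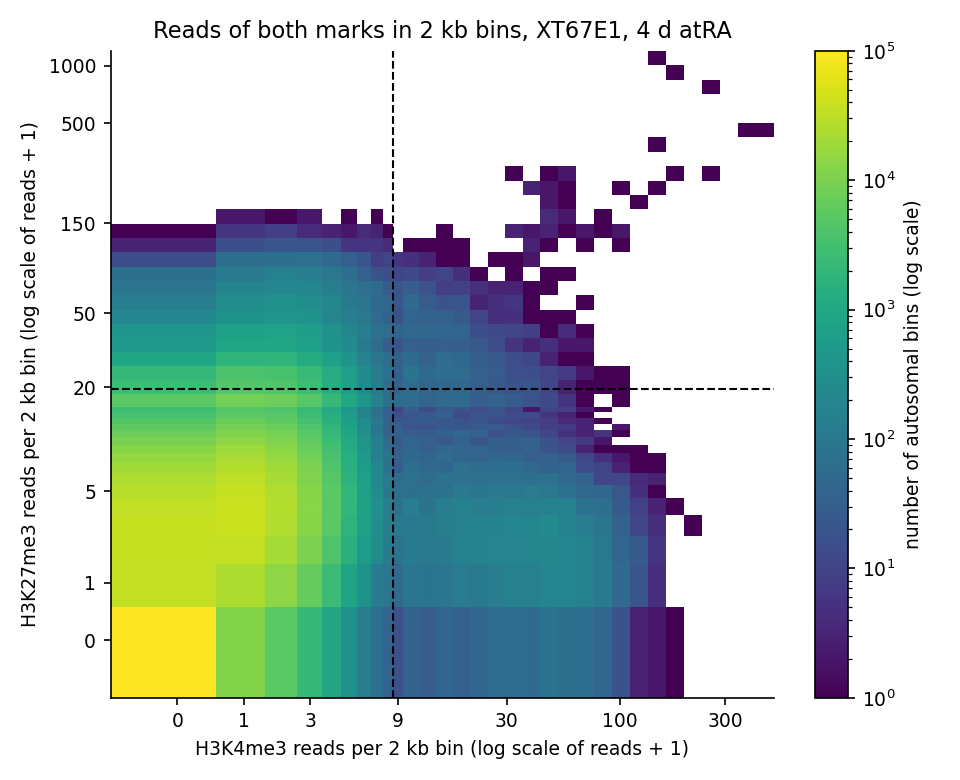
Number of autosomal 2 kb bins by H3K4me3 reads (x axis) and H3K27me3 reads (y axis) after 4 days of atRA, both on a log scale of reads + 1, with the colour on a log scale and dashed lines at the thresholds of 9 and 20 reads. Bins with high counts of both marks form a sparse scatter at the upper right, apart from the many H3K4me3-rich bins with few H3K27me3 reads at the lower right.

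Part of the overlap lay in bins that were high in every library. In 165 bins all 10 libraries reached 5 times their own mean, and these made up 8.50% of the bins with both marks and 0.0133% of all bins. The 10 libraries include the 2 described here, so each of these bins passes both thresholds by definition, and leaving them out can only lower the overlap. They lay in 113 runs, the longest on chromosome 11 from 3028001 to 3100000, with 1664 H3K4me3 reads and 6177 H3K27me3 reads. Others lay on chromosome 9 from 3022001 to 3040000, with 693 and 1104 reads, and on chromosome 17 from 39980001 to 39986000, with 576 and 2888 reads. Without these 165 bins, 1777 bins carried both marks, or 11.9% of H3K4me3-marked bins. What makes them high was not tested, and loci that carry both marks throughout cannot be told apart from bins high for another reason. Most results that rest on them are given with and without them, and the profiles around H3K4me3 runs only without them.

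How often bins carried the H3K27me3 mark varied with their H3K4me3 level. The share of bins with the H3K27me3 mark was 2.29% where H3K4me3 was below its mean, 4.72% at 1 to 2 times the mean, 8.17% at 2 to 3 times and 16.1% at 3 to 5 times. It was highest, 24.5% of 5240 bins, at 5 to 10 times the H3K4me3 mean. Above that it was 10.7% of 4594 bins at 10 to 20 times, 3.43% of 4143 bins at 20 to 40 times and 2.19% of 1097 bins at 40 times or more. Of the 1942 bins with both marks, 1284 therefore had H3K4me3 at 5 to 10 times its mean, the weakest class of marked bins. Classes below 5 times the mean rest on fewer than 9 H3K4me3 reads per bin and are not H3K4me3-marked. The class below the mean also includes the 103817 bins with no read of either mark.

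At 20 times the H3K4me3 mean or more, the share with H3K27me3 lay below that of all bins, 3.69%, with the thresholds used here, but not under every setting. Without the bins high in all libraries the shares were 23.5% at 5 to 10 times, 9.98% at 10 to 20 times, 2.56% at 20 to 40 times and 0.464% at 40 times or more, that is 5 of 1078 bins. Over all bins at 20 times or more, 3.17% carried H3K27me3 with those bins and 2.12% without them. In 2 settings the comparison with all bins turned round: with H3K27me3 called at 5 times its mean the share was 1.66% against 1.01% of all bins, and in 5 kb bins it was 3.29% against 3.10%. Without the bins high in all libraries it was 0.598% against 1.00% and 0.452% against 3.08% in those settings. Since those bins were chosen as high in both marks, that lowering is fixed by the choice, and the direction at 20 times the mean or more depends on the setting and on these bins.

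**Figure D2:**
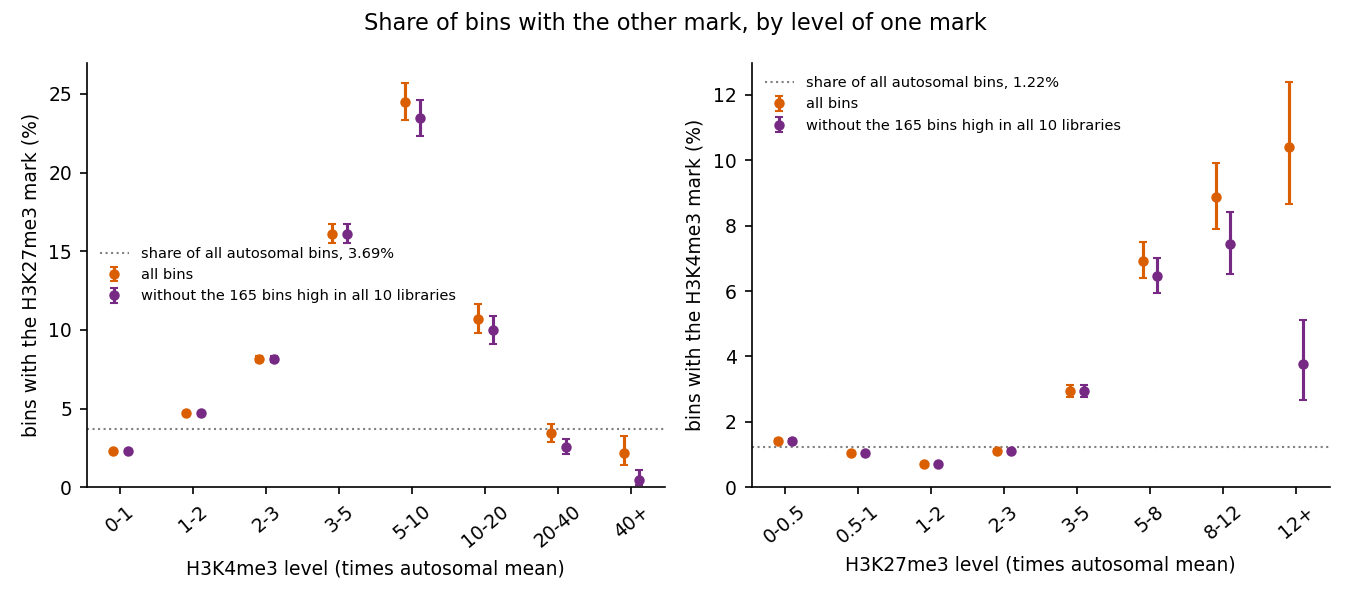
Percentage of bins with the H3K27me3 mark by H3K4me3 level (left) and with the H3K4me3 mark by H3K27me3 level (right), with exact 95% intervals, for all bins and without the bins high in all 10 libraries; dotted lines give the share of all autosomal bins. The left panel peaks at 24.5% in the class of 5 to 10 times the H3K4me3 mean and ends at 2.19%.

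The median H3K27me3 level followed the share in part. It was 1.08 times the mean at 2 to 3, 3 to 5 and 5 to 10 times the H3K4me3 mean alike, while the upper quartile was 1.70, 2.16 and 2.93. At 10 to 20 times the median was 0.617, at 20 to 40 times 0.463 and at 40 times or more 0.308, against 0.771 over all bins. The mean level was 2.23 at 5 to 10 times, 1.28 at 10 to 20 times, 0.904 at 20 to 40 times and 1.37 at 40 times or more, and the last was 0.458 without the bins high in all libraries. Across the 15074 H3K4me3-marked bins, Spearman's rho between the read counts of the marks was -0.36 (Pearson's r of log2 counts + 1, -0.35). Across all 1236158 bins rho was 0.29, and across the 1132341 bins with a read of either mark it was 0.14. Bins of the same 2 libraries are not independent replicates, and the value over all bins includes those with no read of either mark.

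Most H3K4me3-marked bins had little H3K27me3. It was at or below its mean in 9859 of the H3K4me3-marked bins, 0.798% of all bins and 65.4% of those marked (64.6 to 66.2). Among all bins 62.9% were at or below the mean, so that over all H3K4me3-marked bins the difference was small. By H3K4me3 level the share was 46.9% at 5 to 10 times, 64.7% at 10 to 20 times, 82.4% at 20 to 40 times and 92.3% at 40 times or more. In a further 21.7% H3K27me3 lay between its mean and the threshold. A complete lack of H3K27me3 reads was rarer in H3K4me3-marked bins than elsewhere, at 4.34% against 10.2% of all bins, which include those with no read of either mark.

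H3K27me3-marked bins were not poorer in H3K4me3 reads than other bins. H3K4me3 was at or below its mean in 17111 of them, 1.38% of all bins and 37.5% of those marked (37.0 to 37.9), against 60.4% of all bins. No H3K4me3 read was found in 13.1% of them, against 31.5% of all bins. All bins include those with no read of either mark, which raises both shares given for all bins. The H3K4me3 median was 1.15 times the mean in H3K27me3-marked bins and 0.574 over all bins, a difference of 1 read. The share with the H3K4me3 mark was 2.94% at 3 to 5 times the H3K27me3 mean, 6.93% at 5 to 8 times, 8.87% at 8 to 12 times and 10.4% of 1085 bins at 12 times or more. The last value depended on the bins high in all libraries. Without them it was 3.76% of 1010 bins, below the 7.43% then found at 8 to 12 times. Since those bins were chosen as high in both marks, leaving them out can only lower these shares. Whether the share rises or falls at 12 times or more thus depends on that choice and cannot be decided here.

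Around H3K4me3 runs, stretches of adjacent H3K4me3-marked bins, mean H3K27me3 rose in flanks where H3K4me3 was weaker. Levels were averaged in steps of 200 bp on both sides of the highest H3K4me3 step of each run, leaving out runs with a bin high in all libraries. In 2879 runs whose highest bin was at 5 to 10 times the mean, H3K27me3 was 2.42 at the centre, reached 3.03 at 1000 bp and declined to 1.37 at 16 to 20 kb. The 3245 runs at 10 to 20 times had 1.14 at the centre and a peak of 1.71 at 1200 bp. In 3684 runs at 20 to 40 times H3K27me3 was 0.637 at the centre, 0.952 at 1 to 2 kb and 1.04 at 16 to 20 kb. In 1061 runs at 40 times or more H3K27me3 was 0.435 at the centre, 0.634 at 1 to 2 kb and 0.983 at 16 to 20 kb, with no peak beside the centre. Among the runs kept, weaker H3K4me3 runs thus had on average raised H3K27me3 with a dip at the H3K4me3 maximum. The strongest of the runs kept lay in a trough. Profiles that include the runs left out are not given, and the choice affects the strongest class. In 2 kb bins at 40 times or more, mean H3K27me3 was 1.37 with the bins high in all libraries and 0.458 without them. The profile means do not describe every run. The 1587 runs with a bin of both marks had H3K27me3 of 4.55 at the centre and 5.64 at 1000 bp. In the 9282 runs with none it was 0.672 at the centre and 1.01 at 1 to 2 kb. That split is itself made by H3K27me3.

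**Figure D3:**
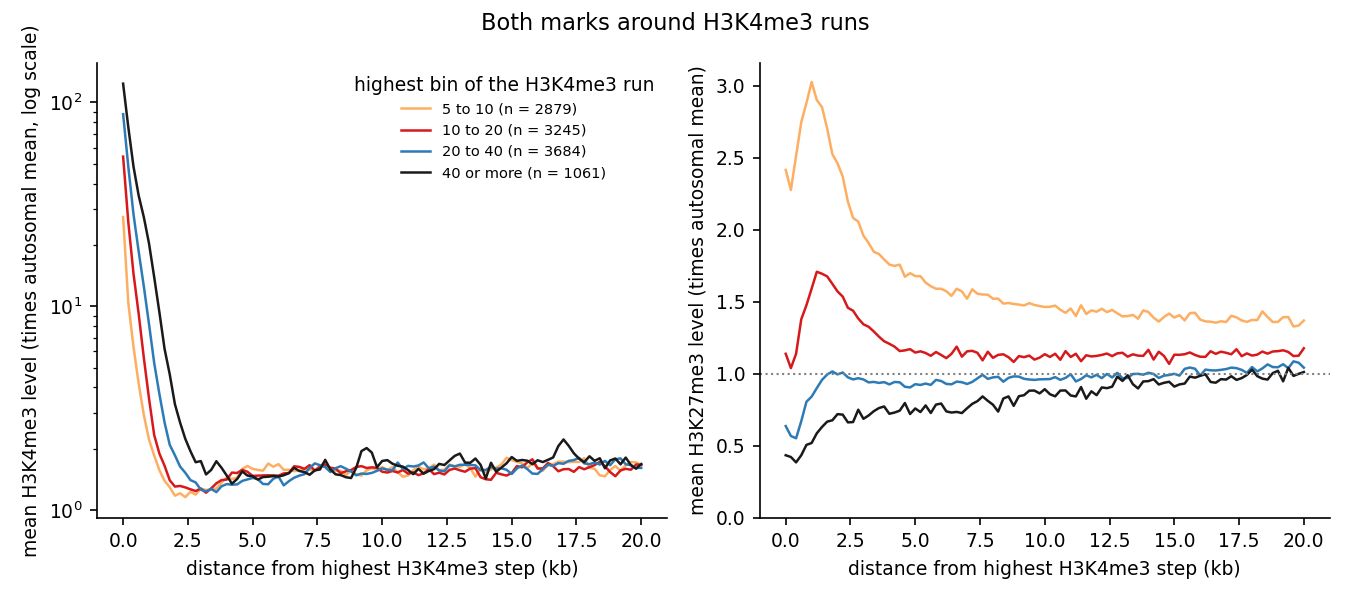
Mean H3K4me3 level (left, log scale) and mean H3K27me3 level (right) against distance in kb from the highest 200 bp step of H3K4me3 runs, by the level of the run's highest bin. Runs with a bin high in all libraries are left out. At the centre H3K27me3 is 2.42, 1.14, 0.637 and 0.435 times its mean in the 4 classes from weak to strong.

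The offset was also seen within bins. In the 1777 bins with both marks and not high in all libraries, the 500 bp with the most H3K4me3 reads held 56.1% of the bin's H3K4me3 reads, a share raised by that choice. The same 500 bp held 21.6% of the bin's 63631 H3K27me3 reads, where an even spread gives 25%. The 165 bins high in all libraries differed in this, with 32.5% of their 19280 H3K27me3 reads in those 500 bp, above an even spread. Of these reads 6177 lay in the run on chromosome 11 from 3028001 to 3100000, so the value does not describe every bin.

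The marks differed in their widest runs. The 15074 H3K4me3-marked bins formed 10987 runs with a mean width of 2.74 kb, of which 66.2% were a single bin and 8 reached 10 kb. The H3K27me3-marked bins formed 23829 runs with a mean width of 3.83 kb, of which 62.1% were a single bin. Of these 1569 (6.58%) reached 10 kb, 287 reached 20 kb and 33 reached 40 kb, and runs of 10 kb or more held 26.2% of the H3K27me3-marked bins. The median was 2 kb, the bin size, for each mark, and narrower runs cannot be resolved. Most runs of either mark were thus narrow, and the wide runs were nearly all of H3K27me3. The marks were called at unlike thresholds and depths, which also affects run widths. Bin size did too: 1.41% of H3K27me3 runs reached 10 kb in 1 kb bins and 36.8% in 5 kb bins.

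Stretches with both marks were short. They formed 1700 runs with a mean width of 2.28 kb, of which 89.2% were a single bin. Without runs that held a bin high in all libraries, none of the 1587 remaining runs exceeded 8 kb. A run of both marks cannot be wider than the H3K4me3 run that holds it. Of all H3K4me3 runs 66.2% were a single bin, so the short widths are in part fixed by H3K4me3. H3K27me3 runs that held a bin of both marks were wider, with a median of 6 kb over 1669 runs against 2 kb over the 22160 runs with none. Wider runs have more bins in which H3K4me3 can fall, and the widths of both kinds are a description. The share of runs with a bin of both marks was 2.72% for runs of 2 kb, 11.8% for 4 to 8 kb, 22.9% for 10 to 18 kb, 30.3% for 20 to 38 kb and 39.4% of the 33 runs of 40 kb or more. Per bin the order was not the same: 2.72%, 5.34%, 4.59%, 3.33% and 6.76% of the bins in these runs carried both marks, and 2.65% in runs of 40 kb or more without those holding a bin high in all libraries.

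Long domains held a similar share of the bins with both marks and of all H3K27me3-marked bins. Of the bins with both marks 27.2% lay in H3K27me3 runs of 10 kb or more, against 26.2% of all H3K27me3-marked bins, and 20.8% were alone in a run of 2 kb, against 32.4%. In runs of 10 kb or more, 15.1% of the bins with both marks were the first or last bin of the run, against 26.2% of all H3K27me3-marked bins there. Without the bins high in all libraries the shares were 24.4% in runs of 10 kb or more, 21.9% alone in a run and 17.5% first or last.

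**Figure D4:**
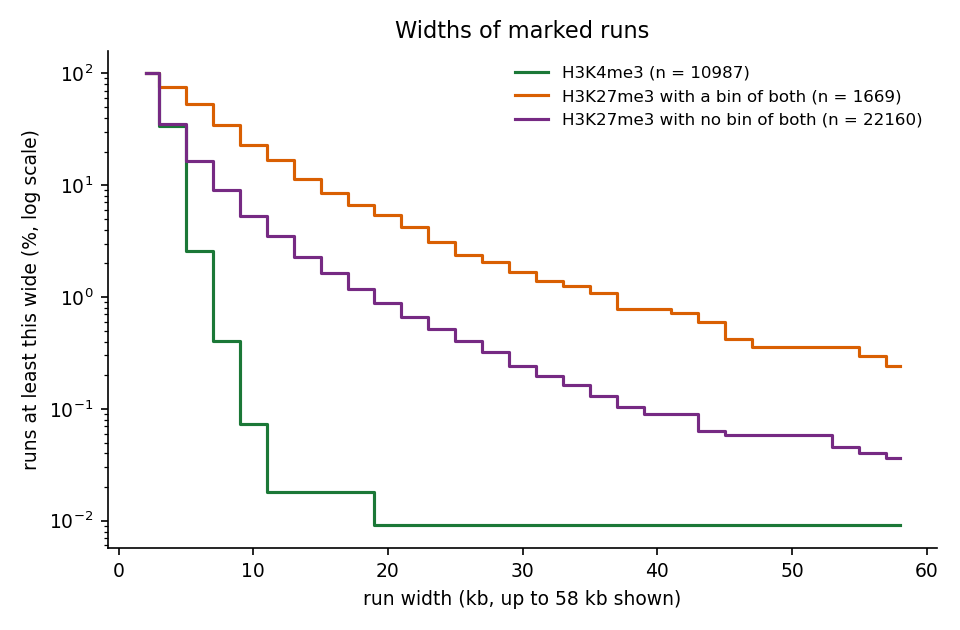
Percentage of runs (log scale) at least as wide as the width on the x axis in kb, for H3K4me3 runs and for H3K27me3 runs with and without a bin of both marks. Runs of 10 kb or more are 0.0728% of H3K4me3 runs, 22.9% of H3K27me3 runs with a bin of both marks and 5.35% of those with none.

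H3K27me3 was also more often found beside H3K4me3-marked bins. The nearest H3K27me3-marked bin was the adjoining one for 7.35% of H3K4me3-marked bins, against 3.87% of all bins with a read. Counting coinciding bins too, H3K27me3-marked chromatin was within 10 kb of 32.0% of H3K4me3-marked bins, against 17.7% of all bins with a read. For H3K4me3 at 20 times the mean or more, 3.17% had H3K27me3 in the same bin, below the 4.03% of all bins with a read, but 5.55% had it first in the adjoining bin, above the 3.87% of all, and 21.0% had it within 10 kb. The median distance to the nearest H3K27me3-marked bin was 30 kb for H3K4me3-marked bins and 78 kb for all bins with a read.

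Over 1 Mb windows the numbers of marked bins of the 2 marks went together. Across 2367 windows with reads in 250 bins or more, Spearman's rho between the numbers of H3K4me3-marked and H3K27me3-marked bins was 0.70 (Pearson's r 0.54), and 0.71 without chromosome 8. The windows share both libraries, and the number of mapped reads varies among them, so the value is a description. The 524 windows with no H3K4me3-marked bin had a median of 1 H3K27me3-marked bin, and the 141 windows with 21 or more had a median of 46. At the scale of 2 kb bins, 84.5% of the bins at 20 times the H3K4me3 mean or more had H3K27me3 at or below its mean. That share was 65.4% over all H3K4me3-marked bins and 62.9% over all autosomal bins. The window counts use all marked bins. Of all H3K4me3-marked 2 kb bins 12.9% carried H3K27me3, against 3.69% of all bins. The contrast with the windows thus concerned the strongest H3K4me3 bins, not the H3K4me3-marked bins as a whole.

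**Figure D5:**
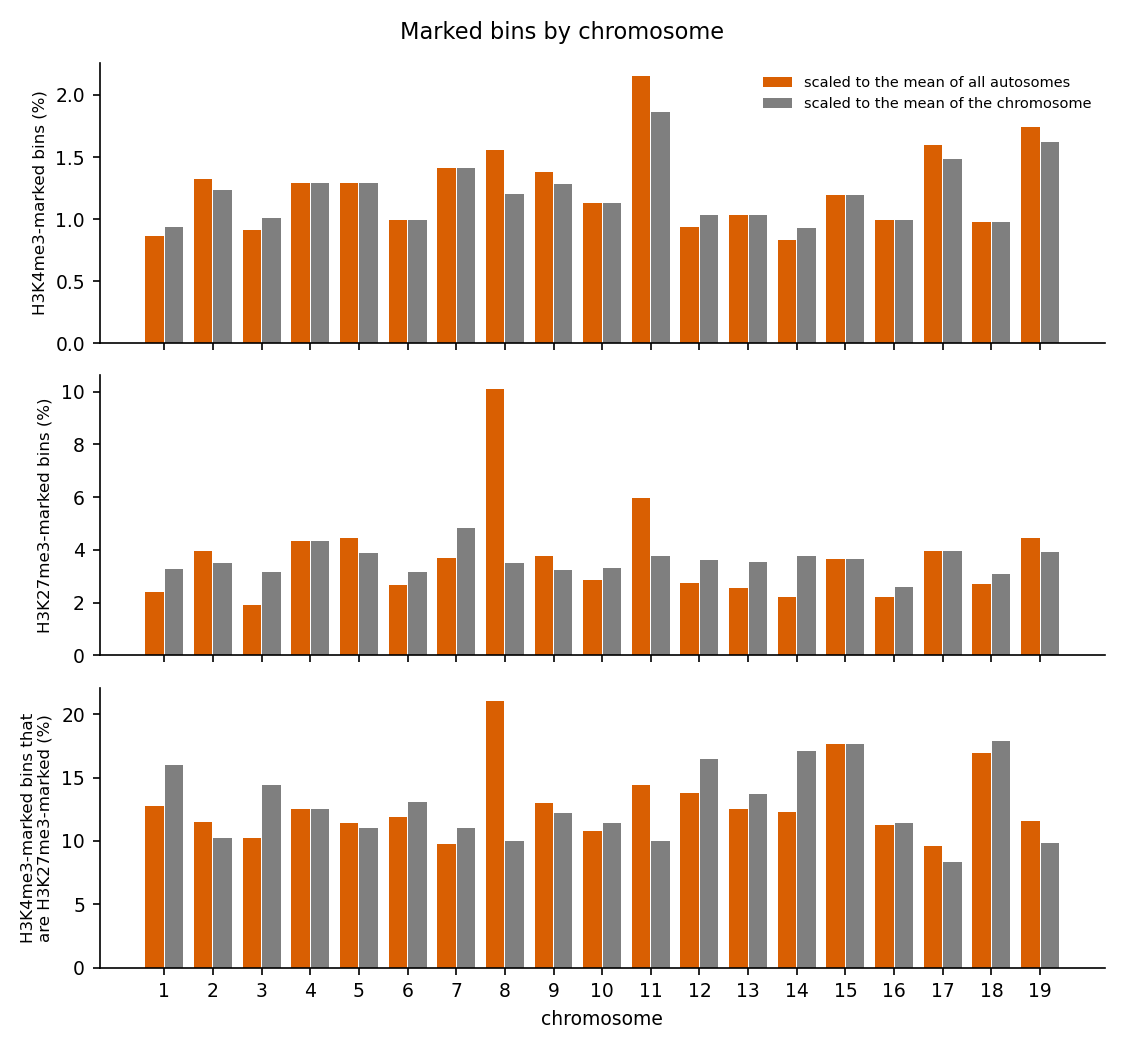
Percentage of H3K4me3-marked bins, of H3K27me3-marked bins and of H3K4me3-marked bins that are H3K27me3-marked, for chromosomes 1 to 19, with levels scaled to the mean of all autosomes or to the mean of the chromosome. Chromosome 8 stands out in H3K27me3 at 10.1% of its bins and is at 3.49% when scaled to its own mean.

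Chromosome 8 held more reads of both marks per bin than any other autosome. Its read density was 1.43 times the autosomal mean in H3K4me3 and 1.52 times in H3K27me3, where the other 18 autosomes ran from 0.859 to 1.27 and from 0.870 to 1.19. H3K27me3 marked 10.1% of its bins, against 1.90% to 5.97% on the others, and 21.0% of its H3K4me3-marked bins carried H3K27me3, against 9.58% to 17.6%. Scaled to its own mean, the values were 3.49% (others 2.59% to 4.82%) and 10.0% (others 8.33% to 17.9%), within the range of the other chromosomes. With levels scaled over all autosomes, chromosome 8 held 14.6% of all H3K27me3-marked bins and 11.1% of bins with both marks. Why its read density is higher was not tested. Of the others, chromosome 15 had the highest share of H3K4me3-marked bins with H3K27me3, 17.6%, and chromosome 17 the lowest, 9.58%.

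The loci with the highest levels of both marks were, when ranked by the lower of the 2 levels, all bins or runs high in every library. The first 10 runs each held at least 1 such bin, led by chromosome 17 from 39980001 to 39986000 and chromosome 2 from 98502001 to 98508000 (981 H3K4me3 reads and 1204 H3K27me3 reads). Among runs without such bins, the highest was on chromosome 2 from 80286001 to 80288000. It held 23 H3K4me3 reads (exact Poisson 95% interval 14.6 to 34.5) and 81 H3K27me3 reads (64.3 to 101), or 13.2 and 12.5 times the means.

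Further loci with both marks followed closely and cannot be ranked within their counting error. Chromosome 8 from 94880001 to 94884000 held 36 H3K4me3 reads and 151 H3K27me3 reads. On chromosome 5 the run from 75548001 to 75552000 held 48 and 111 reads, and on chromosome 1 the bin from 74996001 to 74998000 held 18 and 84. The widest run of both marks without a bin high in all libraries was on chromosome 2 from 172370001 to 172378000, with 60 H3K4me3 reads and 167 H3K27me3 reads over 8 kb. Runs of 6 kb lay on chromosome 18 from 11050001 to 11056000 (74 and 154 reads) and on chromosome 8 from 28086001 to 28092000 (116 and 152 reads). These runs show moderate H3K4me3, from 6.89 to 22.2 times the mean over the 10 widest, on H3K27me3 of 6.32 to 11.6 times.

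Loci of H3K4me3 with H3K27me3 at or below its mean were ranked by their H3K4me3 reads, so their levels are not comparable with those of the loci above. The run with the most reads was on chromosome 7 from 52378001 to 52386000, with 249 H3K4me3 reads (219 to 282) and 13 H3K27me3 reads (6.92 to 22.2) over 8 kb. Chromosome 17 from 34252001 to 34262000 held 243 and 11 reads over 10 kb, and chromosome 18 from 75526001 to 75532000 held 234 and 5. On chromosome 8 the run from 109416001 to 109420000 held 229 H3K4me3 reads and 3 H3K27me3 reads, although that chromosome was rich in reads of both marks. Over the 10 such runs, H3K4me3 was between 27.9 and 66.9 times its mean and H3K27me3 between 0.231 and 0.694 times. Of the 10, 4 lay on chromosome 8, which held 1027 of the 15074 H3K4me3-marked bins. A ranking by reads favours that chromosome, whose H3K4me3 read density was 1.43 times the autosomal mean.

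Loci of H3K27me3 with H3K4me3 at or below its mean were ranked by their H3K27me3 reads, which favours wide runs. The run with the most reads was on chromosome 17 from 34806001 to 34820000, with 6 H3K4me3 reads (2.20 to 13.1) and 466 H3K27me3 reads (425 to 510) over 14 kb. Chromosome 19 from 16942001 to 16952000 held 5 and 421 reads, chromosome 1 from 78194001 to 78208000 held 4 and 395, and chromosome 13 from 31702001 to 31716000 held 6 and 380. Over the 10 such runs H3K4me3 was between 0.246 and 0.574 times its mean and H3K27me3 between 7.51 and 13.8 times, and none was on chromosome 8.

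Of the 33 H3K27me3 runs of 40 kb or more, 13 held an H3K4me3-marked bin, and 10 of 30 did without runs with a bin high in all libraries. The widest H3K27me3 run was on chromosome 15 from 102734001 to 102848000, 114 kb or 57 bins, with 177 H3K4me3 reads and 3011 H3K27me3 reads. Of its bins 5 were H3K4me3-marked, with 9 to 15 H3K4me3 reads and 28 to 72 H3K27me3 reads each. The domain on chromosome 6 from 52154001 to 52228000 (74 kb, 161 and 2098 reads) had 2 such bins, of which the bin from 52154001 to 52156000, with 21 H3K4me3 reads and 25 H3K27me3 reads, was its edge. The domain on chromosome 2 from 74484001 to 74556000 (72 kb, 126 and 2204 reads) also had 2, and that on chromosome 11 from 96128001 to 96172000 (44 kb, 80 and 1141 reads) had 2 adjoining ones. Between these in width came chromosome 8 from 87286001 to 87342000 (56 kb, 105 and 1666 reads), with 2 such bins of which 1 was high in all libraries. Chromosome 8 from 123568001 to 123622000 (54 kb, 87 and 1763 reads) and chromosome 2 from 33460001 to 33506000 (46 kb, 76 and 1175 reads) had 1 each. Over the whole domain H3K4me3 was 1.78 times its mean on chromosome 15, 2.50 on chromosome 6 and 2.01 on chromosome 2, and H3K27me3 8.15, 8.75 and 9.44 times. The run on chromosome 11 from 3026001 to 3100000, also 74 kb wide, was of another kind: all 37 bins were marked by both, and 36 of them were high in all libraries.

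Of the 10 widest H3K27me3 domains with no H3K4me3-marked bin, 6 were on chromosome 8. That chromosome has 65868 of the 1236158 bins and held 3126 of the 23829 H3K27me3 runs. With levels scaled over all autosomes, its higher read density lets more of its bins pass the threshold. H3K27me3 marked 10.1% of its bins so scaled and 3.49% scaled to its own mean. The list was not remade with that scaling. The widest was on chromosome 8 from 124236001 to 124316000, 80 kb with 118 H3K4me3 reads and 1938 H3K27me3 reads, and its highest H3K4me3 bin reached 4.02 times the mean, short of the threshold. The other 5 on that chromosome lay between 123248001 and 125284000. In the window from 123000001 to 124000000, singled out after its values were seen, 15 bins were H3K4me3-marked and 342 of 498 bins with reads were H3K27me3-marked, the most of any window, with 6 bins of both. Read density over this window was 2.15 times the autosomal mean in H3K4me3 and 4.61 times in H3K27me3. On other chromosomes the widest were on chromosome 7 from 150612001 to 150682000 (70 kb, 73 and 1491 reads) and chromosome 4 from 136458001 to 136518000 (60 kb, 54 and 1165 reads).

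The widest H3K4me3 runs were also of several kinds. The first 3, on chromosomes 11 and 9, held bins high in all libraries. Of the 5 further runs of 10 kb, that on chromosome 5 from 123584001 to 123594000 held 109 H3K4me3 reads and 5 H3K27me3 reads, while that on chromosome 11 from 120090001 to 120100000 held 97 and 132 reads, with both marks in 3 of its 5 bins. Among these wide H3K4me3 runs H3K27me3 was thus present in some and at or below its mean in others.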

How the data were processed

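The deposited interval lists hold chromosome, start and end alone, and the authors deposited no value per interval; counts here are numbers of intervals, called reads. All intervals span 200 bp, and none was repeated in its file. The build is mm9, per the submitters' processing notes; how reads were aligned, filtered or lengthened is not stated in them. All 3 XT67E1 files of a mark had equal numbers of rows, so these totals may not be the depth sequenced; what made them equal is not stated. Midpoints were counted in 2 kb bins of chromosomes 1 to 19, up to the last bin with a read of either library, and divided by the mean count over all bins. No input library was used, so local bias shared by both libraries remains in the levels. Runs are adjacent marked bins with no gap. Named loci come from lists of 10 runs: the most reads of the mark where the other is at or below its mean in every bin, the highest lower level and the widest for both marks, and the widest H3K27me3 runs with and without H3K4me3. The lists without bins high in all libraries and of the widest H3K4me3 runs were added after seeing the data. The rule, thresholds and lists were chosen with earlier results of these data known. The screen for bins high in all 10 libraries, the 1 Mb windows, distances and 500 bp shares were added after seeing the data. Code was tested on simulated data. Python 3.11.15, numpy 2.4.6, pandas 2.3.3, scipy 1.17.1 and matplotlib 3.10.9 were used. Alternatives were other thresholds, bin sizes, a shifted grid, other scalings, leaving out chromosome 8 and bridged gaps.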

Additional observations from a re-analysis of the deposited data

How the results depend on the processing

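Depth limits this comparison: a mean of 1.74 H3K4me3 reads per bin leaves weak H3K4me3 unmarked, and 1 library per mark leaves the spread between cultures unknown. No paired analysis was possible because each mark has 1 library and no test was made. With H3K4me3 called at 3 times its mean there were 4063 bins with both marks, 14.4% of H3K4me3-marked bins carried H3K27me3 and 55.4% had it at or below its mean, in 21489 H3K4me3 runs. At 10 times these were 658 bins, 6.69% and 75.2%. With H3K27me3 at 2 times its mean there were 2994 bins with both marks, 19.9% of H3K4me3-marked bins, with 5.86% at 20 times the H3K4me3 mean; 44.0% of H3K27me3-marked bins had H3K4me3 at or below its mean, and of 68331 H3K27me3 runs 8.11% reached 10 kb. With H3K27me3 at 5 times its mean there were 967 bins with both marks, 6.42% of H3K4me3-marked bins and 1.66% at 20 times the H3K4me3 mean, 29.4% of H3K27me3-marked bins had H3K4me3 at or below its mean, and there were 6345 H3K27me3 runs. At 5 times and without bins high in all libraries there were 802 bins, 5.38% and 0.598%.

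In 1 kb bins there were 3943 bins with both marks (13.7%; 4.50% at 20 times), H3K27me3 was at or below its mean in 64.5% of H3K4me3-marked bins and H3K4me3 in 36.5% of H3K27me3-marked bins, and of 63920 H3K27me3 runs, beside 17517 H3K4me3 runs, 1.41% reached 10 kb. In 5 kb bins there were 671 bins with both marks (7.53%), the exclusion shares were 69.1% and 35.8%, and of 8762 H3K27me3 runs 36.8% reached 10 kb. Without bins high in all libraries, 5 kb bins gave 591 bins with both marks, 6.69% of H3K4me3-marked bins and 0.452% at 20 times. Scaled to bins with a read, 10.8% of H3K4me3-marked bins and 2.54% at 20 times carried H3K27me3, and the exclusion shares were 70.7% for H3K4me3-marked and 36.1% for H3K27me3-marked bins. With each chromosome scaled to its own mean, 41.4% of H3K27me3-marked bins had H3K4me3 at or below its mean and 5.97% of runs reached 10 kb. Without chromosome 8 the exclusion shares were 66.8% and 40.1%. With gaps of 1 bin bridged, 12.4% of H3K27me3 runs reached 10 kb. Without bins high in all libraries the shares with H3K27me3 were 11.9% and 2.12%. A grid shifted by 1 kb gave 1913 bins with both marks and 12.7%. The share at 20 times the H3K4me3 mean, below that of all bins in most settings, was above it with H3K27me3 at 5 times its mean and in 5 kb bins. In every setting run here, the share of H3K4me3-marked bins with H3K27me3 exceeded that of all bins.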
